A study of Mus musculus with 4 samples.

Results

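The SOX transcription factors examined here are Sox2, Sox4, Sox5, Sox6, Sox7, Sox9, Sox11, Sox13, Sox17 and Sox18, 10 of the 40092 genes in the count table. They were taken by gene symbol and not by a cutoff on measured values, though earlier results of these data were known. All 10 had a row in the table, and 9 of them were among the 16661 genes with enough counts to be tested. Sox5 was the member left out.

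Bulk RNA-seq was performed on alveolar type 2 (AT2) cells, which make surfactant and renew the alveolar epithelium, sorted from mouse lung by GFP at day 14 after bleomycin, a drug that injures the alveoli. The control group (Ctrl, 2 libraries) was Alkbh5flox/+, and the knockout group (A5-CKO, 2 libraries) was Alkbh5flox/flox, for the gene of an RNA demethylase that removes N6-methyladenosine (m6A) from RNA. Both groups carried Sftpc-CreERT2, which recombines in cells using the surfactant protein C promoter once tamoxifen is given, and the Rosa26-mTmG reporter, which turns recombined cells green. All animals received tamoxifen and bleomycin. The Ctrl cells therefore also had 1 floxed allele open to deletion, no uninjured group was analysed here, and the age of the mice is not given in the sources used here. The labels do not say that each library came from a separate animal, so the variation between libraries that p-values rest on may be technical. With edgeR that variation is estimated partly across all genes tested. With 2 libraries in each group, a permutation test of a single value cannot give a two-sided p under 0.333.

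SOX proteins bind DNA through the HMG box, a domain that sits in the minor groove and bends the helix, and they act with partner proteins at most of their sites. The family is sorted into groups by the similarity of this box: SOXB1 (Sox2), SOXC (Sox4, Sox11), SOXD (Sox5, Sox6, Sox13), SOXE (Sox9) and SOXF (Sox7, Sox17, Sox18). In the lung, Sox2 marks the conducting airways, Sox9 marks the growing distal tips of the embryonic epithelium, and the SOXF genes are best known from endothelial cells.

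The sequence that defines the family is shown first, because it is what the 10 members share and what could let reads of one gene match another. The HMG box was located in each coding sequence as a stretch of 79 codons (237 bases). Below are 30 bases near its start, 10 codons at the signature by which the box was found, on the coding strand from 5′ to 3′, read from the genome build GRCm38. Capitals mark the bases that differ from Sox4.
Sox4 (chr13:28952812-28952841, minus strand): cggcccatgaacgcctttatggtgtggtcg
Sox11 (chr12:27342229-27342258, minus strand): cggcccatgaacgccttCatggtgtggtcC
Sox2 (chr3:34650548-34650577, plus strand): AggcccatgaacgccttCatggtAtggtcC
Sox9 (chr11:112782903-112782932, plus strand): cgAcccatgaacgccttCatggtgtggGcg
Sox5 (chr6:143841244-143841273, minus strand): cgTccAatgaaTgccttCatggtgtggGcg
Sox6 (chr7:115489733-115489762, minus strand): cgAccAatgaaTgcGttCatggtTtggGcA
Sox13 (chr1:133385536-133385565, minus strand): AgAcccatgaaTgccttCatggtgtggGcC
Sox7 (chr14:63943894-63943923, plus strand): cggcccatgaaTgccttCatggtgtggGcC
Sox17 (chr1:4493170-4493199, minus strand): cggccGatgaacgcctttatggtgtggGcC
Sox18 (chr2:181671252-181671281, minus strand): cggcccatgaacgccttCatggtgtggGcg

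These 30 bases differed from Sox4 at 2 positions in Sox11 and in Sox18, and at up to 8 positions in Sox6. Over the whole box, residue identity between members ranged from 48.1% to 93.7% among 45 pairs. The most alike were Sox4 with Sox11, Sox5 with Sox6 and Sox5 with Sox13, at 93.7% each. Sox7 with Sox17 reached 89.9% and Sox17 with Sox18 88.6%. The full box of the SOXC pair is printed because Sox4 was the member with the most counts and Sox11 its nearest relative among the members, with the 30 bases above in capitals.
Sox4 box (chr13:28952617-28952853, minus strand): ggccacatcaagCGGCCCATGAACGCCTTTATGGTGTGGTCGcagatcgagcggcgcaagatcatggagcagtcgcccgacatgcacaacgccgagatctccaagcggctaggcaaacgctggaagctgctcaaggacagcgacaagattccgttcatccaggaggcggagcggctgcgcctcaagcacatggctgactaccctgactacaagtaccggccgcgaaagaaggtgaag
Sox11 box (chr12:27342034-27342270, minus strand): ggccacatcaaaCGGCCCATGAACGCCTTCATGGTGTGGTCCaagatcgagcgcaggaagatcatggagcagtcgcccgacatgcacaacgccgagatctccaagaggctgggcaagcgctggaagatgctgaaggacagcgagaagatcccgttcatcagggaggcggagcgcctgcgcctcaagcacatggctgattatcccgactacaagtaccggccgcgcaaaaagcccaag

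Both SOXC boxes lay within the single exon of their gene. Their bases were 89.5% identical, and the longest run of coding bases shared by Sox4 and Sox11 was 48. Only 2 of the 45 pairs shared a run of 30 or more bases, the other being Sox7 with Sox13 at 35. A read longer than such a run can be told apart outside it, and the methods state that only reads mapping to a single place were retained for counting.

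The 4 libraries held from 18144865 to 20811757 counts, of which the SOX members took from 0.0107% to 0.0135% (2135 to 2708 counts). Levels are normalized counts (CPM) on library sizes scaled by TMM factors. Where 4 values are listed, they stand in the order Ctrl 1, Ctrl 2, A5-CKO 1, A5-CKO 2. A gene at 3 counts, taken as the limit of detection for counting error only, corresponds to 0.128 to 0.177 CPM. Alkbh5, the targeted gene, had 81.7, 152, 19.3 and 36.6 CPM (log2 fold change -2.06, standard error 0.46, adjusted p = 0.528 from edgeR). All 11 AT2 markers were detected in every library, with a summed level of 57444, 82256, 42385 and 35106 CPM, and all 11 were lower on average in A5-CKO. Sftpa1, a surfactant protein and the most abundant of them, had 15249, 20810, 11124 and 9094 CPM. In the edgeR fit 9.18% of all genes tested had an unadjusted p under 0.05. Among the 11 markers 3 did, each with an adjusted p of 0.528 from edgeR. These were Cebpa, a factor of AT2 identity (log2 fold change -1.56), the protease gene Napsa (-1.13), and Sftpb (-1.12), whose second copy on a fix patch was counted apart, so that its value is uncertain. Markers of other cells were present as well, and are given beside the members they bear on. In sorted bulk RNA, fewer cells of a type and less RNA per cell cannot be told apart.

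Sox4 was the most abundant SOX member, and none of the 9 tested members passed the test between A5-CKO and Ctrl. The edgeR quasi-likelihood test called 0 members at an adjusted p under 0.05, beside 0% of all genes tested. At an unadjusted p under 0.05 it again called 0 members, beside 9.18% of all genes. DESeq2, run on the same genes, also called 0 members, though it gave no adjusted p for Sox6 and Sox11. Sox6 was the only tested member with both A5-CKO libraries above both Ctrl libraries, a pattern seen in 20.3% of all genes. Its Ctrl libraries alone held too few counts for testing, so this pattern is not independent of the count filter. Sox7 and Sox18 had both A5-CKO libraries below both Ctrl libraries, a pattern seen in 23.5% of all genes. On average 5 members were higher and 4 lower in A5-CKO, with a median log2 fold change of 0.06, beside -0.02 over all genes tested.

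**Figure D1:**
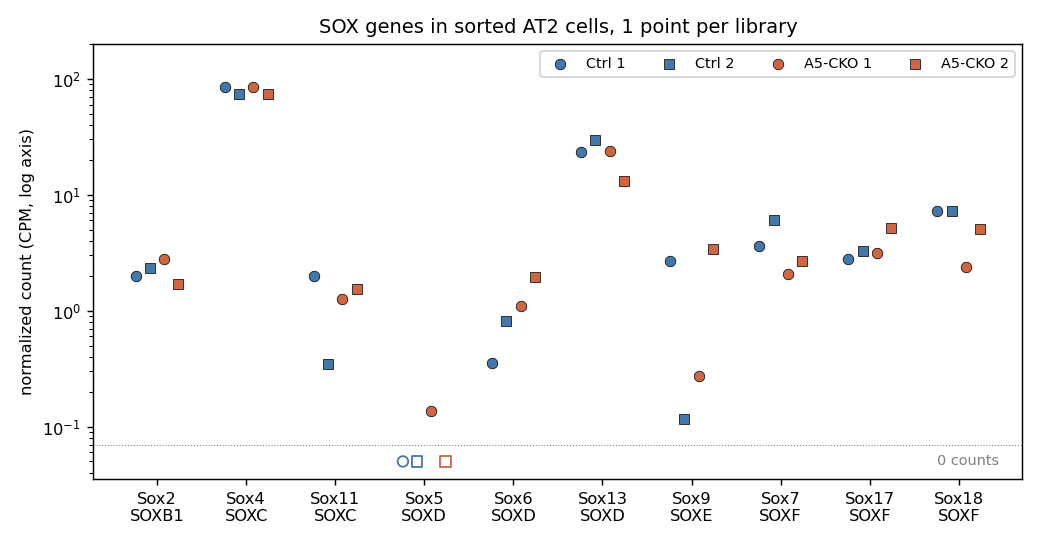
Normalized counts (CPM, log axis) of the 10 SOX members, 1 point per library, with Ctrl in blue and A5-CKO in orange and open points for 0 counts. Sox4 lies between 73.7 and 85.7 CPM in the 4 libraries, while Sox9 spreads from 0.116 to 3.42 CPM and Sox5 has counts in A5-CKO 1 only.

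To compare levels between genes, CPM was divided by the length of each gene's exons in kb. Sox4 stood at 16.6 ± 1.37 CPM per kb (SD, n = 4), above 78.0% of the 15237 tested genes with a length. Sox13 followed at 5.23 ± 1.58 CPM per kb, above 51.2% of those genes, and Sox18 at 3.39 ± 1.42 CPM per kb, above 40.9%. Sox4 made up 58.0% ± 5.80 of the members' summed level per length (SD, n = 4), Sox13 17.9% ± 4.41 and Sox18 11.6% ± 4.33. Each of the other 7 members made up under 4% on average.

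The lower part of the order was Sox7 at 1.09 CPM per kb, Sox2 at 1.08, Sox17 at 0.751, Sox9 at 0.391, Sox11 at 0.155, Sox6 at 0.0712 and Sox5 at 0.00236. Between neighbours in this order the library ranges were apart only for Sox4 and Sox13 (3.18 times) and for Sox6 and Sox5. All other neighbours overlapped in their libraries, including Sox18 and Sox7, whose means differed by 3.10 times. Sox12, another SOXC gene that is not among the 10 members, would stand between Sox13 and Sox18 at 4.07 ± 0.745 CPM per kb (SD, n = 4).

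**Figure D2:**
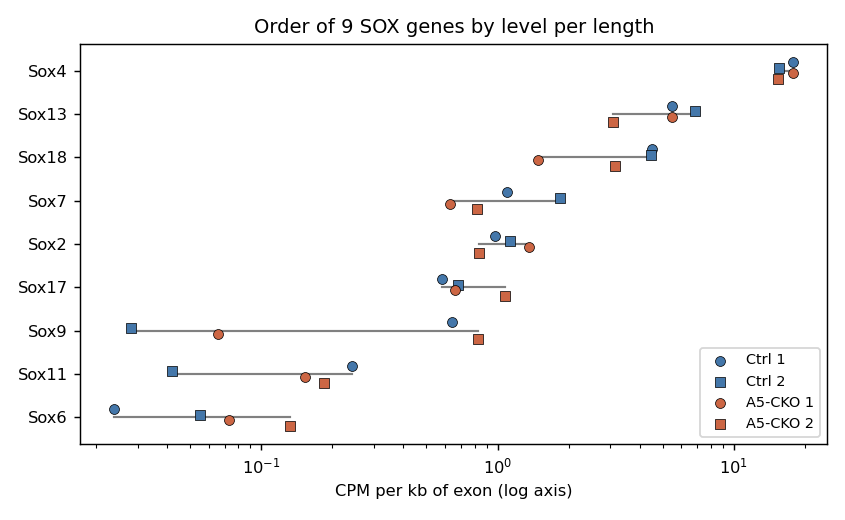
Level per length (CPM per kb of exon, log axis) of 9 SOX members ordered by their mean, with 1 point per library and a grey line from the lowest to the highest library. The 4 Sox4 libraries sit between 15.4 and 17.9, above every library of Sox13, while the ranges of the other neighbours overlap. Sox5 is not drawn.

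Sox2, the SOXB1 member, maintains stem cells in the embryo and basal cells in the airway (GRCm38.p6, chr3:34649995-34652461, plus strand, 1 exon). Its libraries held 34, 40, 62 and 40 counts, or 2.01, 2.33, 2.81 and 1.71 CPM. One A5-CKO library lay above both Ctrl values and one below. The group means were 2.17 ± 0.224 CPM in Ctrl and 2.26 ± 0.776 CPM in A5-CKO (SD, n = 2 each). Its log2 fold change was 0.06 with a 95% interval from -1.43 to 1.55 (edgeR, adjusted p = 0.980), and without A5-CKO 1 it was -0.35. The long non-coding gene Sox2ot, which spans Sox2 on the same strand without sharing exon bases, had at most 2 counts in a library.

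The airway genes listed beside Sox2 were detected in all 4 libraries. Of the 7, 2 were higher and 5 lower on average in A5-CKO, with a median log2 fold change of -0.64, and none passed the adjusted threshold. Their summed level was 2778, 2694, 1896 and 1245 CPM, mostly from Scgb1a1, the club cell secretory protein, at 2262, 1936, 1518 and 1012 CPM. Foxj1, a factor for motile cilia, had 21.6, 17.9, 4.80 and 9.02 CPM (log2 fold change -1.51, unadjusted p = 0.0150, adjusted p = 0.528 from edgeR). Cyp2f2, a club cell cytochrome, had a log2 fold change of -1.15 (unadjusted p = 0.0382, adjusted p = 0.528 from edgeR). Both A5-CKO libraries were below both Ctrl libraries in 4 of the 7 airway genes, a pattern that 23.5% of all genes tested showed, while Sox2 itself overlapped between groups. The basal cell genes were scarce, with 8 to 34 counts of Trp63 and 24 to 34 of Krt5 per library. What share of the Sox2 counts came from airway cells was not tested.

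Sox4, a SOXC activator used in many epithelial and progenitor cells, had nearly equal means in the groups (chr13:28948919-28953699, minus strand, 1 exon). Its counts were 1439, 1279, 1894 and 1725. Scaled, these were 85.1, 74.4, 85.7 and 73.7 CPM. Each group held 1 library near 85 and 1 near 74 CPM, so the libraries of a group differed by more than the groups did. The means were 79.8 ± 7.55 CPM in Ctrl and 79.7 ± 8.50 CPM in A5-CKO (SD, n = 2 each), and edgeR gave a log2 fold change of -0.00022 with a standard error of 0.28 (adjusted p = 0.9999). The 95% interval of the fold ran from 0.629 to 1.59, so a change of that size in either direction was within the error. Its sign turned with the scaling, from 0.043 with RLE factors to 0.31 with total counts only, where the median of all genes moved to 0.30. A non-coding gene annotated across Sox4, Gm46405, had 9 to 14 counts per library, and its reads could not be separated from those of Sox4 by strand, since no source used here says whether counting was strand-specific.

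Sox11, the other SOXC member and a factor of neural and embryonic tissue, was far below Sox4 (chr12:27334268-27342718, minus strand, 1 exon). It held 34, 6, 28 and 36 counts, or 2.01, 0.349, 1.27 and 1.54 CPM. Ctrl 2 stood below the other 3 libraries and Ctrl 1 above them, so both A5-CKO libraries fell between the Ctrl libraries. For Sox11 the log2 fold change was 0.25 with a 95% interval from -1.89 to 2.39 (edgeR, adjusted p = 0.933). It ranged from -0.56 without Ctrl 2 to 2.05 without Ctrl 1, and was -0.28 after a correction for GC content and length.

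Of 4 genes listed as SOXC targets, 2 had enough counts to be tested. Ezh2, a histone methyltransferase, had 10.9, 9.95, 19.2 and 18.7 CPM (log2 fold change 0.86, standard error 0.38, adjusted p = 0.528 from edgeR). Tead2, a partner of YAP, had 8.34, 3.37, 4.07 and 8.21 CPM, so its groups overlapped. The neuronal genes Tubb3 and Dcx had 0 to 26 and 0 to 2 counts per library.

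The SOXD proteins have no activation domain of their own and act with other factors. Sox13, known from T cells and as a partner of TCF proteins, was the most abundant of them (chr1:133382300-133424459, minus strand, 14 exons). It held 399, 510, 522 and 310 counts, or 23.6, 29.7, 23.6 and 13.3 CPM. A5-CKO 2 was below the other 3 libraries, while A5-CKO 1 and Ctrl 1 were level. The means were 26.6 ± 4.30 CPM in Ctrl and 18.4 ± 7.34 CPM in A5-CKO (SD, n = 2 each). A log2 fold change of -0.53 resulted (95% interval -1.51 to 0.45, adjusted p = 0.655 from edgeR), and it was -0.20 without A5-CKO 2 and -1.02 without A5-CKO 1. Of the 10 members, Sox13 and Sox18 had the highest GC content, 60.8% and 60.9%, against a median of 48.0% over all genes with a sequence. Once corrected for GC content and length, Sox13 had a log2 fold change of -0.29 and Sox18 one of -0.55.

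Sox6, which acts in cartilage, muscle and red cell development, was the member higher in both A5-CKO libraries (chr7:115470872-116040776, minus strand, 16 exons). Its libraries held 6, 14, 24 and 46 counts. These were 0.355, 0.815, 1.09 and 1.97 CPM. The groups did not overlap, but the gap between the highest Ctrl library and the lowest A5-CKO library was smaller than the gap within either group. With 6 counts in Ctrl 1, Sox6 passed the count filter only with the help of its A5-CKO libraries. Its difference is therefore not independent of that selection. Sox6 reached a log2 fold change of 1.37 (standard error 0.79, 95% interval -0.51 to 3.26, adjusted p = 0.575 from edgeR), it ranged from 0.85 to 2.05 over the fits lacking 1 library, and it was 0.96 after the GC and length correction. The non-coding genes Sox6os and Gm51455, which overlap Sox6, had at most 2 counts in a library.

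Sox5, a close relative of Sox6 that works with it in cartilage, had 3 counts in A5-CKO 1 and 0 in the other 3 libraries (chr6:143828425-144782287, minus strand, 15 exons). No library was above the limit of detection and no difference was testable at this depth. Of 7 cartilage genes listed beside the SOX9, SOX5 and SOX6 trio, only Col2a1, the collagen of cartilage, was tested, with 7 and 2 counts in Ctrl and 32 and 59 in A5-CKO (log2 fold change 2.88, standard error 0.89, unadjusted p = 0.0146, adjusted p = 0.528 from edgeR). Col2a1 passed the count filter through its A5-CKO libraries only, so its difference is not independent of that selection. Another 4 of the 7 had no more than 3 counts in any library, and Col11a2 and Matn1 had 0 in all.

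Sox13 and the TCF/LEF factors carry related HMG boxes, and TCF/LEF proteins take β-catenin to Wnt targets. Of 5 listed genes, the TCF/LEF factors together with Ctnnb1, the gene of β-catenin, 2 were higher and 3 lower on average in A5-CKO. Their median log2 fold change was -0.12, and 0 passed an adjusted or unadjusted p under 0.05 in the edgeR fit. Ctnnb1 was the most abundant of the 5 at 1217, 1525, 1387 and 1000 CPM. Its groups overlapped.

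Sox9, the SOXE member, marks the distal tip progenitors of the embryonic lung and drives cartilage formation (chr11:112782210-112787757, plus strand, 3 exons). It varied more between the libraries of a group than any other tested member. It held 45, 2, 6 and 80 counts, or 2.66, 0.116, 0.272 and 3.42 CPM. Ctrl 1 and A5-CKO 2 were high and the other 2 libraries low, across genotypes, and Ctrl 2 was below the limit of detection. Its log2 fold change was 0.41 with a standard error of 1.44 and a 95% interval from -2.99 to 3.82 (edgeR, adjusted p = 0.931). It was -0.54 without Ctrl 2, -2.35 without A5-CKO 2 and 4.0 without Ctrl 1, so the direction changed with the library left out.

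The distal tip genes listed beside Sox9 lay on both sides of 0. Of 8, 2 were higher and 6 lower on average in A5-CKO (median log2 fold change -0.40), and 0 passed an adjusted or unadjusted p under 0.05 in the edgeR fit. Their summed level was 1719, 3990, 2040 and 1298 CPM, set mostly by Etv5, a target of FGF signalling that AT2 cells also use, at 716, 2173, 849 and 601 CPM. A pair of genes of that list, chosen after their values were seen, were high in the same libraries as Sox9. Etv4 had 4.79, 0.698, 1.72 and 11.9 CPM and Mycn 4.97, 0.116, 0.589 and 3.55 CPM. The other 6 did not share this order of libraries.

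Markers of mesenchymal cells, some of which also use Sox9, had a summed level of 458, 167, 108 and 1146 CPM. This sum was higher in the same libraries as Sox9, but the single markers did not all share the Sox9 order. Of 10 markers, 8 were both highest in A5-CKO 2 and lowest in A5-CKO 1, while Sox9 was lowest in Ctrl 2. Tcf21, the marker lower on average in A5-CKO, had 2.13, 3.72, 0.905 and 1.28 CPM. Col1a1, a fibrillar collagen, had 147, 32.5, 21.3 and 386 CPM. None of the 10 was at 0 in a whole group, 9 of 10 were higher on average in A5-CKO, and none passed an adjusted or unadjusted p under 0.05 in the edgeR fit. Markers of transitional cells, the state between AT2 and AT1 cells after injury, had a summed level of 3838, 1683, 2494 and 4108 CPM. Of these 10 markers, 7 were highest in A5-CKO 2 and 9 lowest in Ctrl 2. For neither marker list was it counted how many of all genes had the same highest and lowest libraries. All 10 were higher on average in A5-CKO (median log2 fold change 0.24), and none passed the adjusted threshold. Krt8, a keratin and the most abundant of them, had 832, 537, 537 and 836 CPM, and Areg, an EGFR ligand and the only one of the 10 with an unadjusted p under 0.05 in the edgeR fit, had 39.5, 23.7, 69.0 and 69.5 CPM. The part of either cell state in the Sox9 values was not tested.

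**Figure D3:**
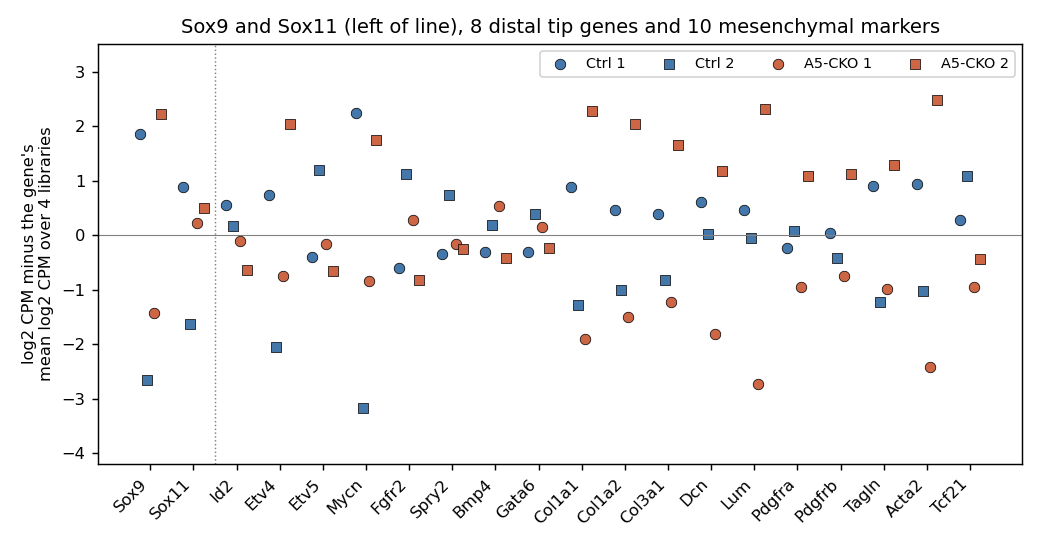
For each gene, the log2 CPM of a library minus the gene's mean over the 4 libraries, with Ctrl in blue and A5-CKO in orange, for Sox9 and Sox11, 8 distal tip genes and 10 mesenchymal markers. Sox9, Etv4 and Mycn are high in Ctrl 1 and A5-CKO 2 and low in the other libraries, and the lowest Sox9 and Mycn points rest on 2 counts each. In 8 of the 10 mesenchymal markers A5-CKO 2 is the highest library and A5-CKO 1 the lowest.

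The SOXF genes direct the formation of blood and lymph vessels. Summed over the 3, they had 13.7, 16.5, 7.65 and 12.9 CPM. The A5-CKO sums were the lower ones, though A5-CKO 2 was near Ctrl 1, and the members did not all follow this order.

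Sox7 held 61, 104, 46 and 63 counts (chr14:63943706-63950732, plus strand, 2 exons). Scaled, these were 3.61, 6.05, 2.08 and 2.69 CPM, so the groups were apart, with means of 4.83 ± 1.73 and 2.39 ± 0.432 CPM (SD, n = 2 each). For Sox7 edgeR estimated a log2 fold change of -1.01 (standard error 0.59, 95% interval -2.41 to 0.38, adjusted p = 0.576 from edgeR). It kept its sign in every alternative run, from -1.28 to -0.63.

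Sox18, mutated in inherited lymphatic disease, held 123, 124, 53 and 119 counts (chr2:181669837-181671640, minus strand, 2 exons). Its levels were 7.27, 7.21, 2.40 and 5.09 CPM. The Ctrl libraries were nearly equal, and the distance of the means, 7.24 ± 0.0416 and 3.74 ± 1.90 CPM (SD, n = 2 each), came mostly from A5-CKO 1. This gave a log2 fold change of -0.95 (standard error 0.57, 95% interval -2.31 to 0.41, adjusted p = 0.579 from edgeR). It was -0.52 without A5-CKO 1 and -1.62 without A5-CKO 2.

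Sox17, needed for endoderm and for arteries, had its highest value in an A5-CKO library (chr1:4490928-4497426, minus strand, 4 exons). It held 47, 56, 70 and 120 counts, or 2.78, 3.26, 3.17 and 5.13 CPM. A5-CKO 1 lay between the Ctrl libraries. Its log2 fold change was 0.46 (standard error 0.58, 95% interval -0.91 to 1.82, adjusted p = 0.793 from edgeR), and without A5-CKO 2 it was 0.04. The difference in effect between Sox17 and the other SOXF genes was not tested.

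Endothelial markers were present in all libraries although the cells were sorted as AT2 cells. Of 12 markers 11 were tested, and Cldn5, a tight junction gene of endothelium, had 0 counts in every library. Whether this reflects the cells or the counting was not tested. The summed level was 417, 583, 343 and 446 CPM, with 5 markers higher and 6 lower on average in A5-CKO and a median log2 fold change of -0.01. Much of this sum came from Esam, an adhesion molecule and the most abundant marker, at 214, 305, 201 and 167 CPM. Esam was lowest in A5-CKO 2. Pecam1, a surface protein of endothelium, had 31.3, 48.1, 29.7 and 50.2 CPM. A5-CKO 1 was the lowest library in 7 of the 11 markers, as it was for Sox7 and Sox18. Vwf, a clotting factor made by endothelium, showed it most, with 60.1 and 71.3 CPM in Ctrl, 12 CPM in A5-CKO 1 and 79.9 CPM in A5-CKO 2. Of the 11 markers, 5 were lowest in A5-CKO 1 and highest in A5-CKO 2, Vwf among them. Sox7 and Sox18 differed from these, as their A5-CKO 2 values were below both Ctrl libraries. How many of all genes were lowest in A5-CKO 1 was not counted. Both A5-CKO libraries were below both Ctrl libraries in 3 of the 11, near the 23.5% of all genes tested, and the part of endothelial cells in the SOXF values was not tested.

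**Figure D4:**
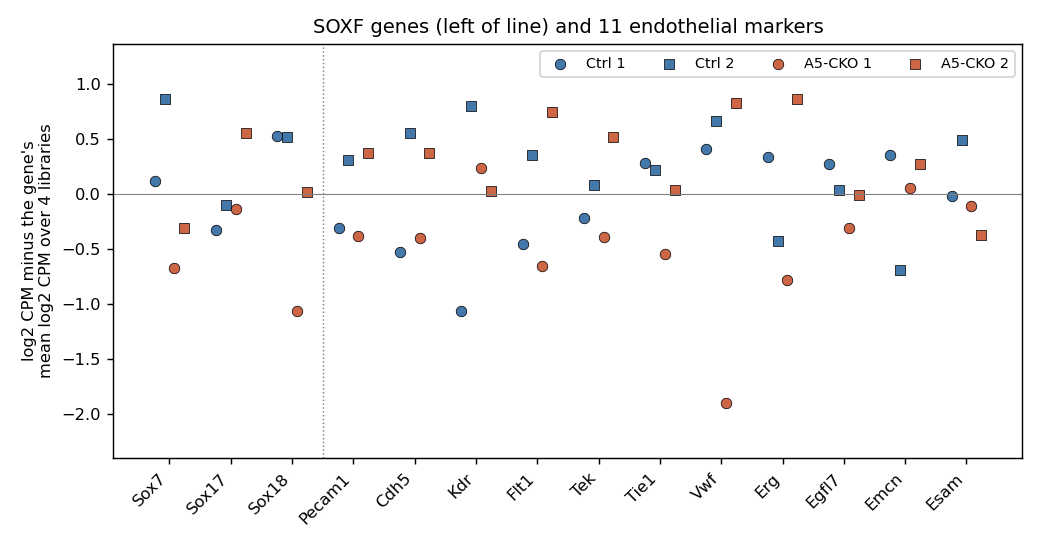
For each gene, the log2 CPM of a library minus the gene's mean over the 4 libraries, with Ctrl in blue and A5-CKO in orange, for the 3 SOXF members and 11 endothelial markers. A5-CKO 1 is the lowest library for Sox7, Sox18 and 7 of the 11 markers. A5-CKO 2 is the highest library for Sox17 and 5 of the markers, but is below both Ctrl libraries for Sox7 and Sox18.

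Across the family, the members differed widely in the precision of the comparison. The narrowest 95% interval of the log2 fold change was that of Sox4, at -0.67 to 0.67, and the widest that of Sox9, at -2.99 to 3.82. Every one of the 9 intervals included 0.

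**Figure D5:**
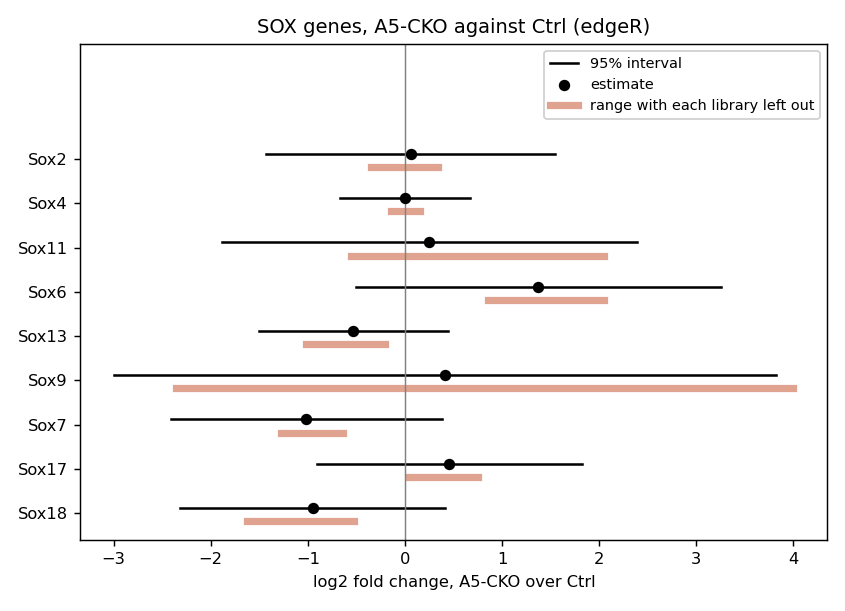
Log2 fold change of A5-CKO over Ctrl for the 9 tested SOX members from edgeR, with the 95% interval as a black line and the range over leaving out each library in turn as an orange bar. All black lines cross 0, and the orange bars of Sox2, Sox4, Sox9 and Sox11 also cross it.

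Beyond the 10 members the table held 10 more SOX genes, of which 4 were tested and 0 passed an adjusted or unadjusted p under 0.05 in the edgeR fit. Sox12, the remaining SOXC gene, had 19.2, 22.1, 17.1 and 14.2 CPM. Both A5-CKO libraries were below both Ctrl libraries (log2 fold change -0.40, standard error 0.36, adjusted p = 0.706 from edgeR). Sox8, a SOXE gene related to Sox9, had 44 and 6 counts in Ctrl and 16 and 21 in A5-CKO. Sox15 had 15 to 28 counts and Sox30 7 to 32 counts per library, and both overlapped between groups. Sox21 had 2 and 2 counts in Ctrl and 23 and 4 in A5-CKO, Sox10 at most 4, Sox3 and Sox14 at most 2, and Sox1 and Sry had 0 in every library.

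Because Alkbh5 acts on m6A, the members were also described by the letters GGACT, the commonest form of the m6A motif, counted on the sense strand of the longest annotated transcript. All 10 members held at least 1, as did 75.8% of 30062 genes. Sox17 had 3.08 per kb, Sox13 1.90 and Sox4 1.88, against a median of 0.902 over all genes, and Sox5 was lowest at 0.690. A match describes the letters and not a methylated site.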

How the data were processed

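GFP-sorted AT2 cells from 2 Ctrl and 2 A5-CKO samples were profiled by RNA-seq (SMARTER kit, Trizol RNA). The authors deposited raw counts per gene, without normalization. Their methods and processing notes name Trim Galore 0.6.10, removal of ribosomal RNA reads, HISAT2 2.2.1 on mm10.p6, duplicate removal with sambamba, retention of uniquely mapped reads and featureCounts 2.0.3 on an NCBI annotation. The counting is described under MeRIP-seq and was taken to hold for RNA-seq, and its strand setting is not stated. Removing duplicates without molecular tags can lower the counts of abundant genes.

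The count columns name the control group WT and were matched to samples by group and replicate number. Groups were compared with edgeR 4.0.16 in R 4.3.3 (TMM, filterByExpr, quasi-likelihood F test, two-sided, Benjamini-Hochberg over 16661 genes, threshold 0.05). The common dispersion was 0.173. Alternatives were RLE, upper-quartile and no factors, no filter, a minimum of 10 counts per sample, DESeq2 1.42.0, limma voom (limma 3.58.1), a replicate block, a GC and length spline (4 degrees of freedom) and leaving out each library. Exon lengths and sequences came from GENCODE M21 on GRCm38 and gene positions from RefSeq on GRCm38.p6. Lengths and GC content covered 91.5% of the genes tested.

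The members and lists were chosen with earlier results of these data known. Named were all 10 members, the other SOX genes, genes overlapping a member and, per list, up to 4 genes, the most abundant and those at unadjusted p under 0.05. Any further gene was picked once its values were known. One marker list is not reported here.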

Additional observations from a re-analysis of the deposited data

How the results depend on the processing

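No SOX member passed an adjusted or an unadjusted p under 0.05 in any fit, and the lowest adjusted p of a member was 0.371 (Sox18). Sox6, Sox7, Sox13, Sox17 and Sox18 kept their direction in every alternative that gave a value. Over all genes, the number with an adjusted p under 0.05 was 0 in edgeR, 64 with DESeq2 on the same genes and 59 with its default filtering, of which 55 were shared. Alkbh5 had an adjusted p of 0.0214 and 0.0235 in these DESeq2 fits. The cause was not tested.

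The members' median log2 fold change, 0.06, was 0.38 with total counts only, where the median of all genes moved from -0.02 to 0.30. It was -0.22 for the 6 members with at least 10 counts in every library, 0.18 with DESeq2's default filtering, which gave a value for all 10 members, and -0.082 after the GC and length correction. It ranged from -0.41 without Ctrl 2 to 0.16 without Ctrl 1. Sox4, at -0.00022, was 0.043 with RLE factors, 0.091 with upper-quartile factors, 0.31 with total counts only, 0.044 with the 10-count filter, and 0.043 and 0.026 in the DESeq2 fits. Sox11 was -0.28 after the GC and length correction. With each library left out, the log2 fold change ran from -0.14 to 0.16 in Sox4, -0.56 to 2.05 in Sox11, -2.35 to 4.0 in Sox9 and -0.35 to 0.34 in Sox2. A lone sample was assumed to vary like the other group.

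With the replicate number as a block, 0 genes passed the adjusted threshold, 754 instead of 1530 had an unadjusted p under 0.05, and the members' median was 0.02. Same-numbered libraries deviated with a correlation of -0.35, so the numbers were not taken as pairs. The crossed pairing, chosen after seeing the data, called 230 genes and 0 members.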

Other observations

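Further lists hold values that belong to no SOX comparison. Of 6 listed SOX partner factors 4 were tested, and all 4 were higher on average in A5-CKO (median log2 fold change 0.73). Pou2f1, a POU factor, had 10.3 and 17.4 CPM in Ctrl and 30.2 and 26.6 CPM in A5-CKO (log2 fold change 1.04, standard error 0.40, unadjusted p = 0.0366, adjusted p = 0.528 from edgeR). It was the only one of the 4 with an unadjusted p under 0.05 in the edgeR fit, beside 9.18% of all genes tested. Rbpj, the DNA-binding protein of Notch signalling, was the most abundant, at 32.2 and 44.2 CPM in Ctrl and 37.4 and 48.4 CPM in A5-CKO. Pou5f1 and Pou3f2 had 0 counts in every library.

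Of 8 AT1 markers 6 were tested, with 5 higher and 1 lower on average in A5-CKO. Their summed level was 2234 and 2186 CPM in Ctrl and 1934 and 2204 CPM in A5-CKO, and Emp2, a membrane protein, was the most abundant at 829 and 951 CPM in Ctrl and 872 and 1022 CPM in A5-CKO. The 10 immune markers had 12842 and 15153 CPM in Ctrl and 9101 and 8155 CPM in A5-CKO, mostly from Lyz2, a lysozyme that mouse AT2 cells also express, with 3 higher and 7 lower on average. Ptprc, the surface protein CD45 of leukocytes, went the other way from this sum, with 50.9 and 22.5 CPM in Ctrl and 84.3 and 82.8 CPM in A5-CKO (log2 fold change 1.19, standard error 0.42, unadjusted p = 0.0260, adjusted p = 0.528 from edgeR). It was the only one of the 10 with an unadjusted p under 0.05 in the edgeR fit, beside 9.18% of all genes tested.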
